A study of Mus musculus with 6 samples.

Results

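The genes examined here encode 8 proteins that alveolar type II cells are known to release and that act, for the most part, in defence of the airspace: Slpi, Lcn2, Il33, Chil1, Hc, C3, Cfb and Egfl6. They were chosen by name, and a gene's value was that of the probe set paired with its symbol alone. Of the 8 genes, 7 had such a probe set, each exactly 1, out of 18193 genes represented on the array. The table of probe genes used here pairs no probe set with C3 alone, so C3 was not analysed here. All 7 others passed the filter on low signals, through values at or above the floor on at least 5 of their 6 arrays.

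Gene expression was measured on Affymetrix 3' expression arrays in cells of mouse lung isolated by FACS (fluorescence-activated cell sorting), with 3 biological replicates per population and 1 array per replicate. The E18 samples were Muc1+/Pdpn+ cells of lungs at embryonic day 18, named bipotent progenitors in the series title, which give rise to type I and type II alveolar cells. The adult samples were Lyz2+/EpCAM+ cells of adult lungs, named ATII (alveolar type II) cells. The series was made to compare these populations, and age and sort differ together between them. Strain, any reporter allele, sex, and whether animals were pooled were not given in the sources used here.

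Type II cells make surfactant and also release proteins that hold back microbes, restrain proteases and alert the immune system. Complement is a cascade of plasma and tissue proteins in which C3 is cleaved, with factor B (Cfb) as the protease partner of the alternative pathway, and C5 (encoded by Hc in the mouse) is cleaved further down. Several of these genes are also expressed by neutrophils, macrophages, airway secretory cells or stromal cells, so marker genes of those cells are given beside the results.

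After the authors' scaling the median signal per array was 70.2 to 112, and arrays give no counting depth. The detection floor, set at the 40th percentile of each array, lay between 5.402 and 6.10 on the log2 scale. All 9 measured type II cell markers, such as the surfactant gene Sftpc, were at or above it on all 6 arrays, and so were all 9 type I markers except 1 in adult replicate 3. Of the genes named in the sorts, Pdpn was higher in the arrays labelled E18 (log2 signal 11.65 to 12.14 against 9.38 to 9.88). Lyz2 went against the labels: it was at 14.04 to 14.27 in the arrays labelled E18 and at 11.13 to 11.44 in those labelled as sorted for it, and every direction given here rests on the labels as deposited. Muc1 and Epcam overlapped between the groups (11.10 to 11.94 against 7.92 to 11.55, and 9.26 to 11.31 against 7.85 to 10.68). The third replicates of both groups carried poly-A control transcripts at a median log2 signal of 13.99 and 14.49, against 6.60 to 9.63 on the other arrays. No label names a batch, so the result of each member is also given for replicates 1 and 2 alone and, as 1 array against 1 with no test, for replicate 3. Values of the 3 replicates of a group are listed in the order of their labels, 1, 2 and 3. In bulk samples, fewer cells of a type and less RNA per cell cannot be told apart.

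Of the 7 genes measured, Slpi rose and Egfl6 fell in the adult arrays, and the other 5 (Il33, Chil1, Lcn2, Hc and Cfb) did not pass the test. Across all 13335 genes tested with limma, 5.98% passed (adjusted p below 0.05), with 1.41% higher in adult cells and 4.57% lower. At an unadjusted p below 0.05 the members past it were the same 2, against 21.6% of all genes. The groups did not overlap for these 2 of the 7, against 28.9% of all genes tested, 10.1% with the adult arrays above and 18.8% with them below. The differences were below 0 for 6 of the 7, with a median of -0.74, beside a median of -0.17 over all genes. All differences are in log2 signal, adult minus E18. The sign of each of the 7 was the same under quantile scaling and under median centring, which brought the median of all genes to -0.05 and -0.02. With replicates 1 and 2 alone, 5 of the 7 passed, 1 higher and 4 lower, where 22.5% of all genes passed, 6.01% higher and 16.5% lower. Neither Slpi nor Egfl6 passed without E18 replicate 1, E18 replicate 2, adult replicate 1 or adult replicate 2.

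**Figure D1:**
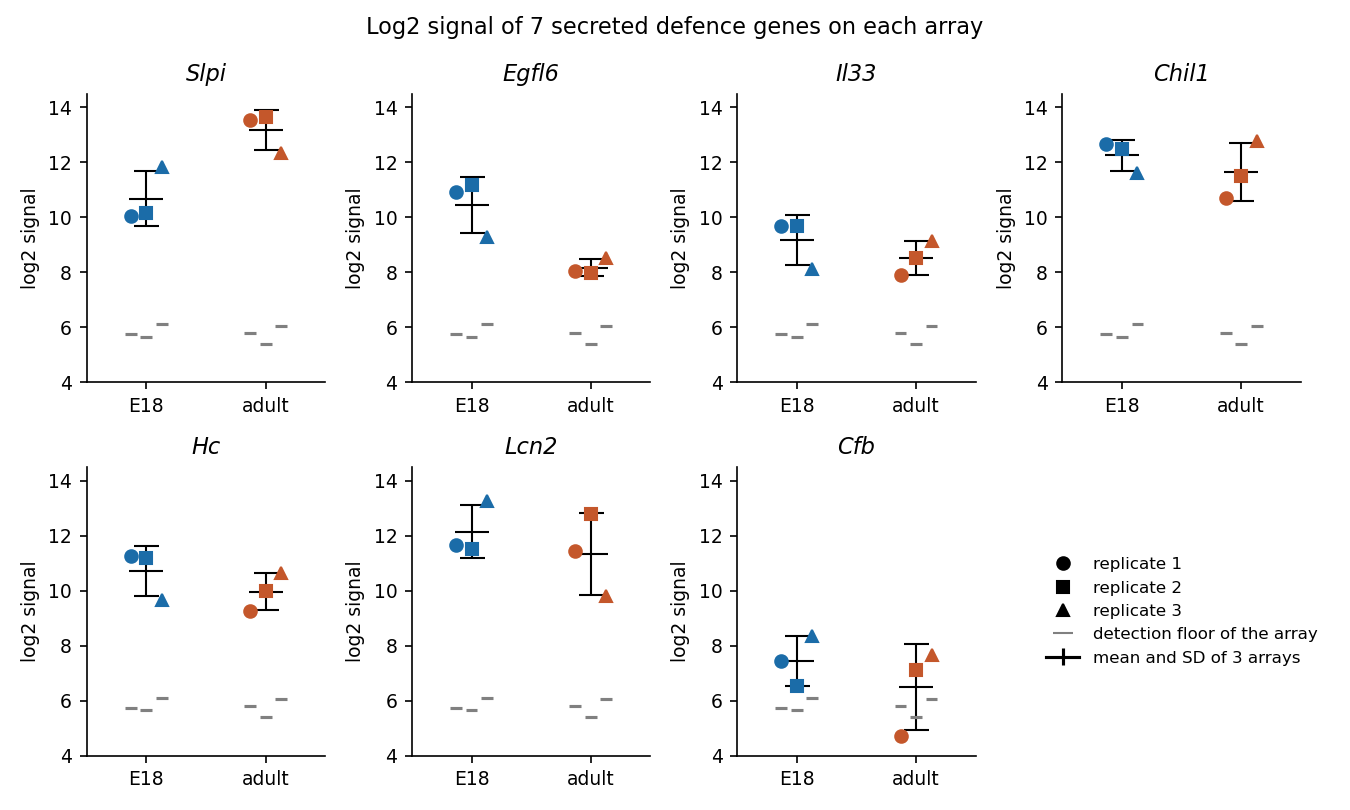
Log2 signal (vertical axis) of each of the 7 genes on the 3 E18 arrays (blue) and the 3 adult arrays (orange), with circles, squares and triangles for replicates 1, 2 and 3, black bars for the mean and SD of 3 arrays, and grey ticks for each array's detection floor. Only Slpi and Egfl6 have groups that do not overlap, and Cfb in adult replicate 1 is the only value under its floor.

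Slpi, the secretory leukocyte protease inhibitor, blocks neutrophil elastase and cathepsin G and has antimicrobial activity of its own. Its signal was 1064, 1135 and 3647 in the E18 arrays, and 11869.8, 12748 and 5212 in the adult arrays. On the log2 scale these are 10.06, 10.15 and 11.83 against 13.54, 13.64 and 12.35. All adult arrays were above all E18 arrays, and the third replicates lay closest to each other, 0.52 apart. The adult mean was 13.17 ± 0.72 and the E18 mean 10.68 ± 1.00 (SD, n = 3), a difference of 2.49 (SE 0.57), or 5.64-fold, with an adjusted p of 0.0481 in limma.

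The size of the Slpi difference varied with the replicates. It was 3.48 in replicates 1 and 2 alone (limma adjusted p = 0.00492) and 0.52 in replicate 3. With the third replicates as a batch term the difference was again 2.49, with an adjusted p of 0.0653. The adjusted p was 0.196 without E18 replicate 1, 0.198 without E18 replicate 2, 0.133 without adult replicate 1 and 0.168 without adult replicate 2. Over the 19 alternatives run it ranged from 0.00492 to 0.198, and it was under 0.05 in 6 of them.

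Markers of other cells also differed between these arrays. The summed signal of 11 lymphocyte markers was 8588 to 17170 in the E18 arrays and 44520 to 81920 in the adult arrays, with 5 to 8 of the 11 at or above the floor in the E18 arrays and all 11 in the adult arrays. That of 12 macrophage markers was 32690 to 53030 against 51790 to 89940, with 11 and 12 of 12 at or above the floor. As with Slpi, the lowest adult sums of both lists were in adult replicate 3 and the highest E18 sums in E18 replicate 3. The median departure of the macrophage markers from each gene's average over all arrays was arranged otherwise in the adult arrays. It was -0.16, -0.27 and 0.37 in the E18 arrays and -0.11, 0.63 and 0.29 in the adult arrays, and the median difference of the list was 0.13. The 10 airway secretory cell markers, by contrast, summed to 25340 to 39590 in the E18 arrays, to 21150 and 24930 in adult replicates 1 and 2, and to 157400 in adult replicate 3, where Slpi was lowest among the adult arrays. Between 7 and 8 of these 10 were at or above the floor in the E18 arrays and 8 to 10 in the adult arrays. The 9 neutrophil markers summed to 29540, 26400 and 106100 in the E18 arrays and to 126700, 73080 and 5835 in the adult arrays. Their median departure was -0.06, -0.29 and 2.56 against 0.94, -0.12 and -2.41, and the median difference of the list was -1.52. Like Slpi they were highest in replicate 3 among the E18 arrays and lowest in replicate 3 among the adult arrays, but in replicate 3 their sum was lower in the adult array, where Slpi was higher. The part of these cells in the Slpi result was not tested.

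Egfl6 encodes a secreted protein of the extracellular matrix with EGF-like repeats and a MAM domain. It is a relative of nephronectin and a ligand of integrins, known as a type II cell marker and not as an antimicrobial protein. Its signal was 1931, 2291 and 617 in the E18 arrays, and 261, 249 and 368 in the adult arrays. On the log2 scale these are 10.92, 11.16 and 9.27 against 8.03, 7.96 and 8.52. All E18 arrays were above all adult arrays, and again the third replicates were closest, 0.75 apart. The adult arrays differed little among themselves (8.17 ± 0.31, SD, n = 3), while the E18 arrays spread more (10.45 ± 1.03). The difference was -2.28 (SE 0.53), or 4.85-fold lower in the adult arrays, with a limma adjusted p of 0.0495.

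For Egfl6 the difference was -3.04 in replicates 1 and 2 alone (limma adjusted p = 0.005) and -0.75 in replicate 3. The batch term left it at -2.28 with an adjusted p of 0.0516. Leaving out E18 replicate 1 or 2 gave 0.216 and 0.211, and leaving out adult replicate 1 or 2 gave 0.129 and 0.163. It no longer passed with quantile normalization (0.0738) or with arrays centred on their medians (0.0782). Over 19 alternatives the adjusted p ran from 0.005 to 0.216 and was under 0.05 in 6.

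Genes of stromal cells and of type I cells were lower in the same arrays as Egfl6. The summed signal of 10 mesenchymal markers was 37370 to 63180 in the E18 arrays and 2299 to 14740 in the adult arrays, with 10 of 10 at or above the floor in the E18 arrays and 6 to 10 in the adult arrays. For 9 endothelial markers the sums were 5345 to 17700 against 2380 to 4152, with 9 of 9 against 4 to 8 of 9 at or above the floor. Both lists, like Egfl6, had their lowest E18 sum in E18 replicate 3. In adult replicate 3, where Egfl6 was highest among the adult arrays, the mesenchymal sum was lowest (2299) and the endothelial sum highest (4152). By median departure both lists were lowest there (-3.12 and -2.38). For 6 mesothelial markers the sums were 9080 to 11980 against 1060 to 7624, with 6 of 6 against 3 to 5 at or above the floor. For 9 type I cell markers, which include Pdpn of the E18 sort, they were 57970 to 77720 against 14420 to 20400. The highest E18 sum of this list was in E18 replicate 3. The part of these cells in the Egfl6 result was not tested.

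The sequences before the transcription starts of Slpi and Egfl6 are shown because these are the genes that passed, in opposite directions. Each is the 250 bases before a start from RefSeq's annotation of GRCm38.p6, on the gene's strand, and capitals mark any match to 4 searched motifs. The Slpi sequence lies at chr2:164356508-164356757 on the minus strand and the Egfl6 sequence at chrX:166585717-166585966 on the minus strand.
Slpi: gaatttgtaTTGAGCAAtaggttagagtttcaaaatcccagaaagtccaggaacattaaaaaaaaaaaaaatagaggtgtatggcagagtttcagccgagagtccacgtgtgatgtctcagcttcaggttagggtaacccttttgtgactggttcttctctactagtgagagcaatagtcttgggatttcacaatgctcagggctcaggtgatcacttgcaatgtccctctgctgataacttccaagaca
Egfl6: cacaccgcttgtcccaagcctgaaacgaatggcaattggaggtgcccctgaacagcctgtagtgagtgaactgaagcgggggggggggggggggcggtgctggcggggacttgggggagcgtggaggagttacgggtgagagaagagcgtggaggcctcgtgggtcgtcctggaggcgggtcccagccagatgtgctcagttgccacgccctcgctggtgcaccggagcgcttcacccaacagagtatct

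The motifs, searched on both strands, were a kappaB pattern (GGGA, any base, T, any 2 bases, CC), a C/EBP pattern (TTGCNNAA), a STAT pattern (TTCNNNGAA) and TATAAA. Of all 32851 promoters in the table, 3.44% held the kappaB pattern in the same 250 bases, 9.56% the C/EBP pattern, 7.02% the STAT pattern and 12.4% TATAAA. The Slpi sequence held 1 C/EBP match, TTGAGCAA, on the opposite strand, 241 to 234 bases before the start. The Egfl6 sequence held none of the 4. Its GC content was 64.8%, with a long run of guanines, and that of Slpi was 42.0%, with a long run of adenines. A match describes letters and is not evidence of a bound site.

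**Figure D2:**
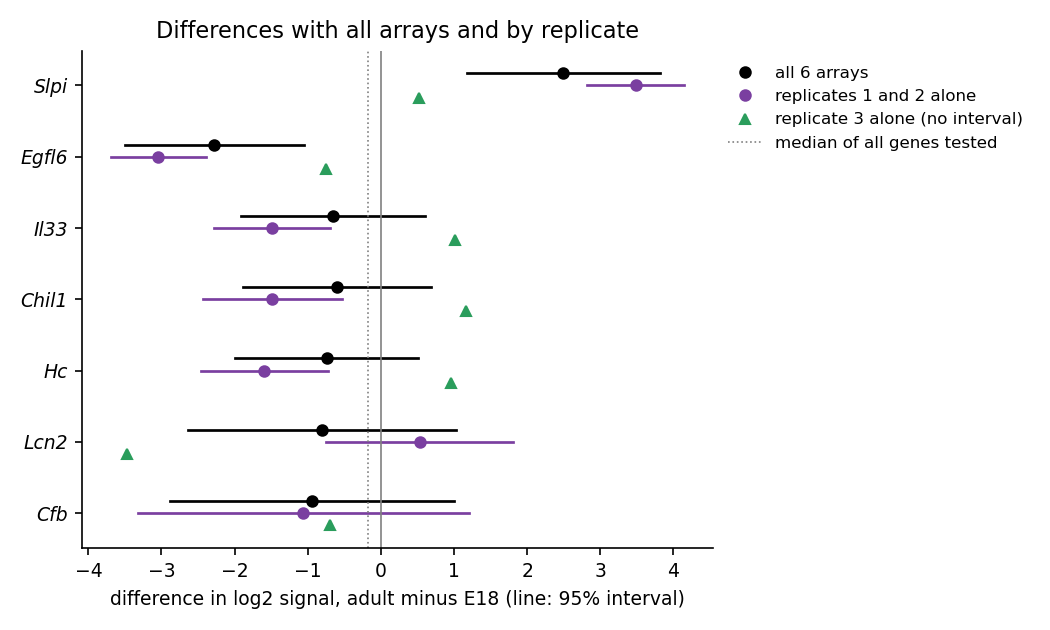
Difference in log2 signal, adult minus E18 (horizontal axis), for each gene with all 6 arrays (black, with the 95% interval of the limma fit), with replicates 1 and 2 alone (purple, with its interval) and with replicate 3 alone (green triangles, 1 array against 1, no interval). The dotted line is the median of all genes tested, -0.17, and for Il33, Chil1 and Hc the replicate 3 difference lies on the other side of 0 from the difference in replicates 1 and 2.

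Il33, Chil1 and Hc had overlapping groups and the same arrangement of arrays. In each, E18 replicates 1 and 2 were close together and E18 replicate 3 was lower, whereas adult replicate 3 was the highest adult array. All 3 were at or above the floor on all 6 arrays.

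Il33 encodes interleukin 33, an alarmin of the interleukin 1 family that is stored in the nucleus and released when cells are damaged. Its log2 signal was 9.68, 9.69 and 8.11 in the E18 arrays and 7.89, 8.51 and 9.13 in the adult arrays. The range of the adult arrays lay within that of the E18 arrays but for adult replicate 1. The difference was -0.65 (SE 0.54, 95% interval -1.91 to 0.61, limma adjusted p = 0.536).

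Chil1, a chitinase-like protein that binds chitin without cutting it, stood at 12.67, 12.49 and 11.60 in the E18 arrays and 10.68, 11.51 and 12.76 in the adult arrays. The highest and the lowest of the 6 values were both adult. Its difference was -0.60 (SE 0.55, 95% interval -1.89 to 0.68, limma adjusted p = 0.581).

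Hc, the gene of complement component C5, stood at 11.27, 11.19 and 9.67 in the E18 arrays and 9.27, 10.001 and 10.63 in the adult arrays. Adult replicates 2 and 3 lay between the E18 values. The difference was -0.74 (SE 0.54, 95% interval -1.996 to 0.51, limma adjusted p = 0.474).

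Each of these 3 genes gave opposite signs in the replicates split by poly-A signal. In replicates 1 and 2 alone the differences were -1.49 for Il33 (limma adjusted p = 0.0305), -1.48 for Chil1 (0.0473) and -1.60 for Hc (0.032), and all 3 passed. In replicate 3 they were 1.01, 1.16 and 0.96. With the third replicates as a batch term none of the 3 passed (adjusted p = 0.528, 0.574 and 0.478). The intervals of the fit with all 6 arrays include both a decrease of more than 2-fold and an increase.

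The median of the type II cell markers was arranged in a similar way on these arrays, though not every marker was. Their median departure from the average of the gene over all arrays was 0.38, 0.12 and -0.50 in the E18 arrays and -0.53, -0.48 and 0.41 in the adult arrays. Their summed signal was 36180 to 55950 in the E18 arrays, lowest in replicate 3, and 46850 to 77130 in the adult arrays, highest in replicate 3. Sftpa1, a surfactant collectin, was at 13.32, 13.32 and 11.39 in the E18 arrays and 12.39, 13.30 and 13.95 in the adult arrays. Sftpc was arranged otherwise, at 14.05, 13.90 and 14.17 against 14.67, 14.4996 and 14.52, highest among the E18 arrays in replicate 3. Muc1, of the E18 sort, and Epcam, of the adult sort, were also highest among the adult arrays in adult replicate 3, at 11.55 and 10.68. Airway cell markers stood further above their average in adult replicate 3. The median departure of airway secretory cell markers was -0.46, -0.95 and -0.42 in E18 arrays and -0.997, -0.56 and 3.62 in adult arrays. For 8 ciliated cell markers it was -0.03, -0.19 and -0.73 against -1.32, -0.64 and 2.996. By this measure only the ciliated list was lowest among the E18 arrays in replicate 3, while by summed signal both lists were. The part of the share of type II cells or of airway cells in the values of Il33, Chil1 and Hc was not tested.

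The promoter sequences of the 3 genes that varied together are shown with the same motifs in capitals. RefSeq gives 2 starts for Il33, at chr19:29924863-29925112 and chr19:29945540-29945789 for the 250 bases before them, both on the plus strand. The Chil1 sequence is chr1:134181906-134182155 on the plus strand and the Hc sequence chr2:35061413-35061662 on the minus strand.
Il33 first start: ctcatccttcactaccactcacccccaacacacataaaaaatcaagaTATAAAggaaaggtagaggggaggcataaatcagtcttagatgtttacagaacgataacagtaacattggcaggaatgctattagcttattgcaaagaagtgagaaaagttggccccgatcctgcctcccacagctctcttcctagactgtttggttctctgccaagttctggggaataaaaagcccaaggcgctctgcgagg
Il33 second start: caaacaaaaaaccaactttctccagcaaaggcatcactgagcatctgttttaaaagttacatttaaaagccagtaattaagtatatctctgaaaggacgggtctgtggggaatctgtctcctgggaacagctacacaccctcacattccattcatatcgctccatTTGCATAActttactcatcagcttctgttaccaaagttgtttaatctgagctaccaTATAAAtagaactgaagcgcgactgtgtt
Chil1: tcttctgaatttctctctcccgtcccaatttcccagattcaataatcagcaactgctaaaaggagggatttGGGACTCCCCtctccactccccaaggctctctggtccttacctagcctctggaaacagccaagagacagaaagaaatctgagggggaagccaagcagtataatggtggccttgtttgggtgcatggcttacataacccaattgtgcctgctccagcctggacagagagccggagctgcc
Hc: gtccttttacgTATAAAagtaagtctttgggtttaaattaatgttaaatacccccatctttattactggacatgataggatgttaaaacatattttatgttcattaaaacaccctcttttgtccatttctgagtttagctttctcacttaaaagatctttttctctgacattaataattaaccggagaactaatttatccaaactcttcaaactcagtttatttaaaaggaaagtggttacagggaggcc

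No motif was shared by all 3 genes. TATAAA was in the Il33 and Hc sequences: 203 to 198 bases before the first Il33 start, 29 to 24 before the second, and 239 to 234 before the Hc start. The sequence before the second Il33 start also held a C/EBP match, TTGCATAA, 85 to 78 bases before it. Chil1 held 1 kappaB match, GGGACTCCCC, 179 to 170 bases before its start. No match overlapped another, and the STAT pattern was in none of these windows. For comparison, the Lcn2 window held 1 C/EBP match, TTGCTCAA, and no kappaB match.

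Lcn2, or lipocalin 2, withholds iron from bacteria by binding their siderophores, and neutrophil granules and stressed epithelium are known sources. Its log2 signal was 11.66, 11.52 and 13.28 in the E18 arrays and 11.45, 12.79 and 9.80 in the adult arrays. The groups overlapped, with the highest value in E18 replicate 3 and the lowest in adult replicate 3, where Il33, Chil1 and Hc were each at their adult maximum. The means were 12.15 ± 0.98 and 11.35 ± 1.496 (SD, n = 3), a difference of -0.81 (SE 0.79, 95% interval -2.64 to 1.03, limma adjusted p = 0.603). In replicates 1 and 2 alone the sign turned, to 0.53 (adjusted p = 0.472), and in replicate 3 the difference was -3.48.

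Neutrophil markers had their extremes in some of the same arrays. The sums of their 9 genes, given above, rest on 8 or 9 of 9 at or above the floor on every array. S100a9, an abundant neutrophil protein, was at 11.92, 11.66 and 14.53 in the E18 arrays and 15.43, 14.86 and 10.21 in the adult arrays, a difference of 0.80 (limma adjusted p = 0.779), whereas the median difference of the 9 genes was -1.52 and none of them passed. The median departure of the 9 genes from their average over all arrays was -0.06, -0.29 and 2.56 in the E18 arrays and 0.94, -0.12 and -2.41 in the adult arrays. By this measure the highest and the lowest array were those of Lcn2, while by the sum adult replicate 1 was highest. The part of neutrophils in the Lcn2 values was not tested.

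Cfb, complement factor B, had the widest interval of the 7. Its log2 signal was 7.43, 6.52 and 8.35 in the E18 arrays and 4.73, 7.10 and 7.65 in the adult arrays. Adult replicate 1 was under the floor, and the other adult arrays lay within the E18 range. The difference was -0.94 (SE 0.84, 95% interval -2.89 to 1.01, limma adjusted p = 0.567). It was -1.06 in replicates 1 and 2 (adjusted p = 0.417), -0.70 in replicate 3, -0.58 with each value below the floor raised to it, and -0.06 without adult replicate 1.

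**Figure D3:**
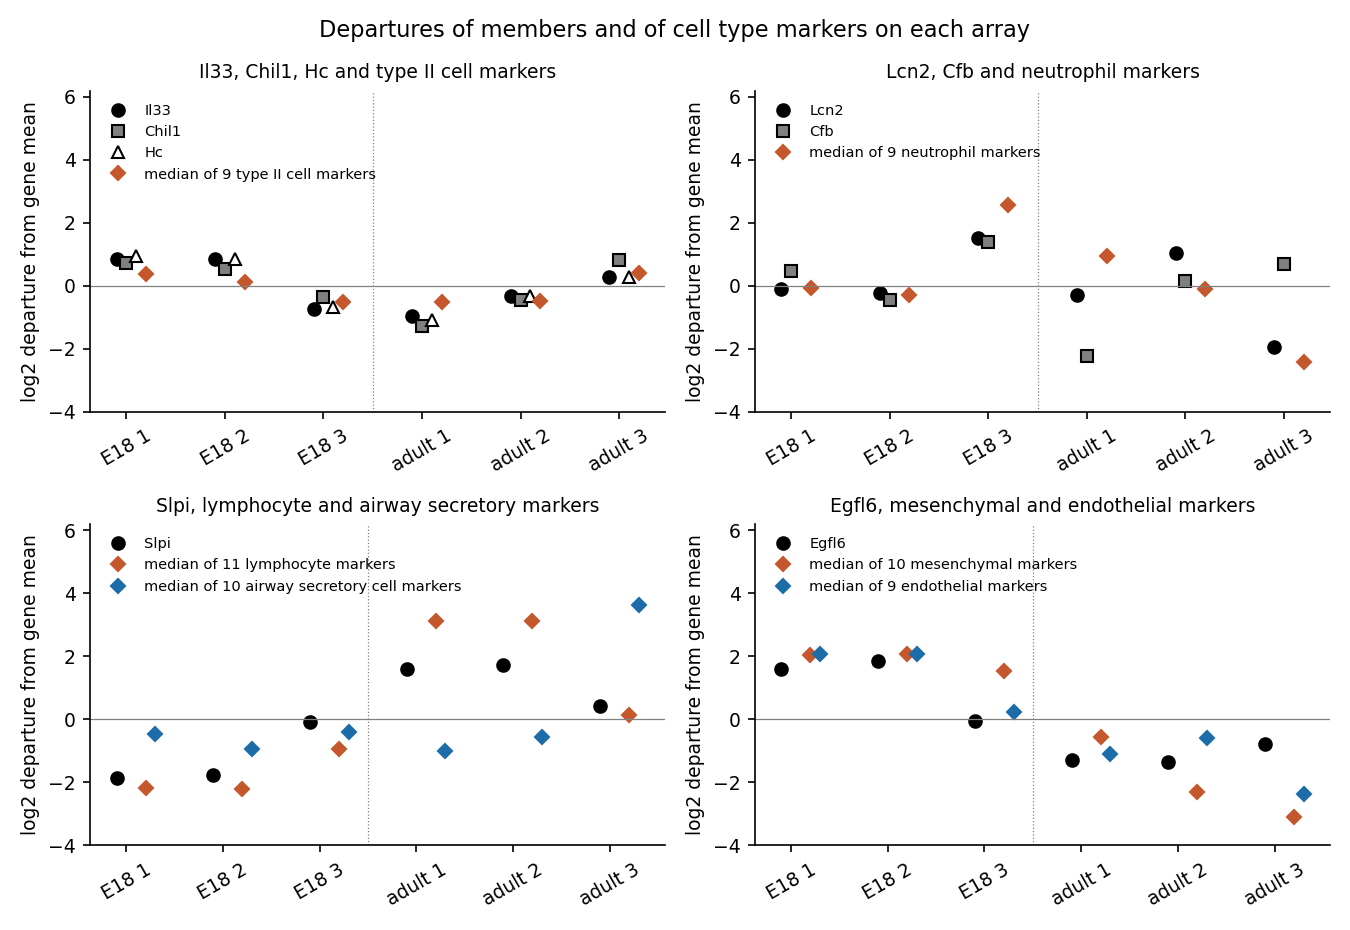
Departure of log2 signal from each gene's mean over the 6 arrays (vertical axis) for the 7 genes (black, grey and white symbols) and the median departure of marker lists for other cell types (coloured diamonds), array by array. Il33, Chil1, Hc and the median of the type II markers are all lowest among the E18 arrays in replicate 3 and highest among the adult arrays in replicate 3, and Lcn2 and the median of the neutrophil markers show the opposite.

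The genes whose profiles were most like each member were found by Pearson's correlation over the 6 arrays, given as a description. For Il33 they were Bckdk (r = 0.998) and Hc (0.997), and for Hc they were Il33 (0.997) and Acvrl1 (0.995), so that these members were among each other's closest genes out of 13335. For Chil1 they were Paip1 (0.999) and Arhgap18 (0.997). For Lcn2 they were Cma1 (0.993), a mast cell chymase, and Klf7 (0.992), for Cfb Commd8 (0.996) and Rbm33 (0.994), for Slpi Med30 (0.999) and Zdhhc20 (0.996), and for Egfl6 Rapgef5 (0.998) and Dgcr2 (0.996). These values rest on only 6 points. At the lower bound of 0.95 or more, between 21 genes (Lcn2, 0.16% of all) and 295 genes (Egfl6, 2.21%) were alike a member.

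Relatives and partners of these proteins were examined in 8 lists. The list with most members called held Egfl6's relatives together with integrin subunits and other matrix proteins. In it 8 of 12 tested were lower and 0 were higher, beside 4.57% and 1.41% of all genes. The other 4 missed the threshold, and the median was -3.45. The 8 were Npnt, Egflam, Itga8, Fbln1, Fbln2, Fbln5, Fras1 and Frem2, not all of them relatives of Egfl6. Npnt, or nephronectin, the closest relative of Egfl6 and a ligand of integrin alpha 8, was at 12.25, 12.48 and 12.88 in the E18 arrays and 7.40, 7.27 and 8.57 in the adult arrays (-4.79, SE 0.42, limma adjusted p = 0.00303). The elastic fibre protein Fbln5 was also lower (-4.57, limma adjusted p = 0.00651), as was the matrix protein Egflam (-4.52, adjusted p = 0.0046). Egflam reached the floor on 3 E18 arrays and 0 adult arrays. It thus passed the filter through the E18 arrays alone, and the size of its difference rests on adult values under the floor. The count of 8 includes it, and the list was not recounted with the floor required on all 6 arrays. The count for the list was 8 lower under quantile scaling and under median centring, and 10 in replicates 1 and 2, where 16.5% of all genes were lower. Fibulins and Itga8 are also expressed by mesenchymal cells, whose markers were lower in the adult arrays as given above. Type I cell markers were lower there as well. The part of either cell type in the decreases of this list was not tested.

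Among complement genes other than the members, 3 of 21 tested fell and 1 rose, beside 4.57% and 1.41% of all genes. The other 17 missed the threshold, and the median was -0.70. The increase was in Cd55, a membrane protein that speeds the decay of the C3 convertase and so shields the cell that bears it, at 7.41, 7.36 and 7.70 in the E18 arrays and 9.36, 9.67 and 11.32 in the adult arrays (2.63, SE 0.53, limma adjusted p = 0.0322). Serping1, the inhibitor of C1, was lower, at 11.25, 11.17 and 10.63 against 7.80, 8.01 and 9.39 (-2.62, SE 0.47, adjusted p = 0.0227). C1s1, a C1 protease, fell by 2.44 (adjusted p = 0.04997), and Fcna, a ficolin of the lectin pathway named after its value was seen, fell by 2.37 (adjusted p = 0.0133). The C1s1 value in adult replicate 1, 5.02, was under the floor. The receptors of the C3a and C5a fragments did not pass, with differences of -0.97 for C3ar1 (adjusted p = 0.224) and -0.70 for C5ar1 (adjusted p = 0.638). The decreases numbered 2 under quantile scaling and under median centring, where 3.79% and 3.95% of all genes were lower. They numbered 6 in replicates 1 and 2, where 16.5% of all genes were lower.

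In the pathway through which interleukin 33 signals, 1 of 9 tested genes rose and 0 fell, beside 1.41% and 4.57% of all genes. The other 8 missed the threshold, and the median was 0.11. Il1rl1, the gene of the interleukin 33 receptor, was not among the genes tested. The gene that rose was Irak1, a kinase downstream of the receptors for interleukin 1 and interleukin 33, at 9.73, 9.58 and 10.14 in the E18 arrays and 13.11, 11.995 and 11.38 in the adult arrays (2.35, SE 0.46, limma adjusted p = 0.0292). Tab2, an adaptor of the kinase TAK1, differed by 0.53 (adjusted p = 0.538).

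No other chitinase family gene passed among 4 tested with limma, and 1 had an unadjusted p under 0.05, beside 21.6% of all genes. That gene was Chil3, a chitinase-like protein abundant in alveolar macrophages, at 11.44, 10.90 and 13.49 in the E18 arrays and 14.59, 14.24 and 14.52 in the adult arrays (2.51, SE 0.62, adjusted p = 0.0609). Unlike Chil1, its groups did not overlap. Of the 4 lipocalin and Lcn2 receptor genes tested with limma 0 passed, with 1 at an unadjusted p under 0.05, beside the same 21.6%. Slc22a17, a receptor for lipocalin 2, was at 9.33, 9.22 and 9.07 in the E18 arrays and 4.13, 7.57 and 8.92 in the adult arrays (-2.33, adjusted p = 0.263). It was not the gene under 0.05, as its unadjusted p in limma was 0.0648. Its value in adult replicate 1 was under the floor.

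Protease inhibitors related to Slpi and the neutrophil proteases they restrain included no gene past the test among 12, with 5 at an unadjusted p under 0.05, beside 21.6% of all genes, and a median of -0.86. Wfdc2, another secreted protein with the WAP fold of Slpi, was at 11.13, 11.35 and 10.34 in the E18 arrays and 9.44, 10.60 and 14.28 in the adult arrays (0.50, adjusted p = 0.830), with its highest value in adult replicate 3 where Slpi was lowest among the adult arrays. Cst3, an inhibitor of cysteine proteases, differed by 1.17 (adjusted p = 0.0722) and Spint2 by -0.46 (adjusted p = 0.682).

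Among 19 other secreted airspace proteins, 1 rose and 1 fell, beside 1.41% and 4.57% of all genes. The other 17 missed the threshold, and the median was 0.54. Hp, haptoglobin, which binds free haemoglobin, was higher, at 13.00, 12.83 and 13.11 against 14.35, 13.94 and 14.25 (1.20, SE 0.25, limma adjusted p = 0.0377), and was not called after quantile normalization. Lyz2, a lysozyme that cuts bacterial cell walls, was lower in the arrays labelled adult, as given above (-2.86, SE 0.25, adjusted p = 0.00303). Of 21 regulators of the NF-kappaB, C/EBP and STAT3 pathways, which are known to control several of the members, 0 passed in limma and 5 had an unadjusted p under 0.05, beside 21.6% of all genes, with a median of 0.43. Nfkbia, the inhibitor of NF-kappaB, differed by 0.65 (adjusted p = 0.314) and Nfkbiz, a nuclear regulator of Lcn2, by -0.05 (adjusted p = 0.925). In replicates 1 and 2 alone 7 of these 21 were higher and 1 lower, beside 6.01% and 16.5% of all genes.

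**Figure D4:**
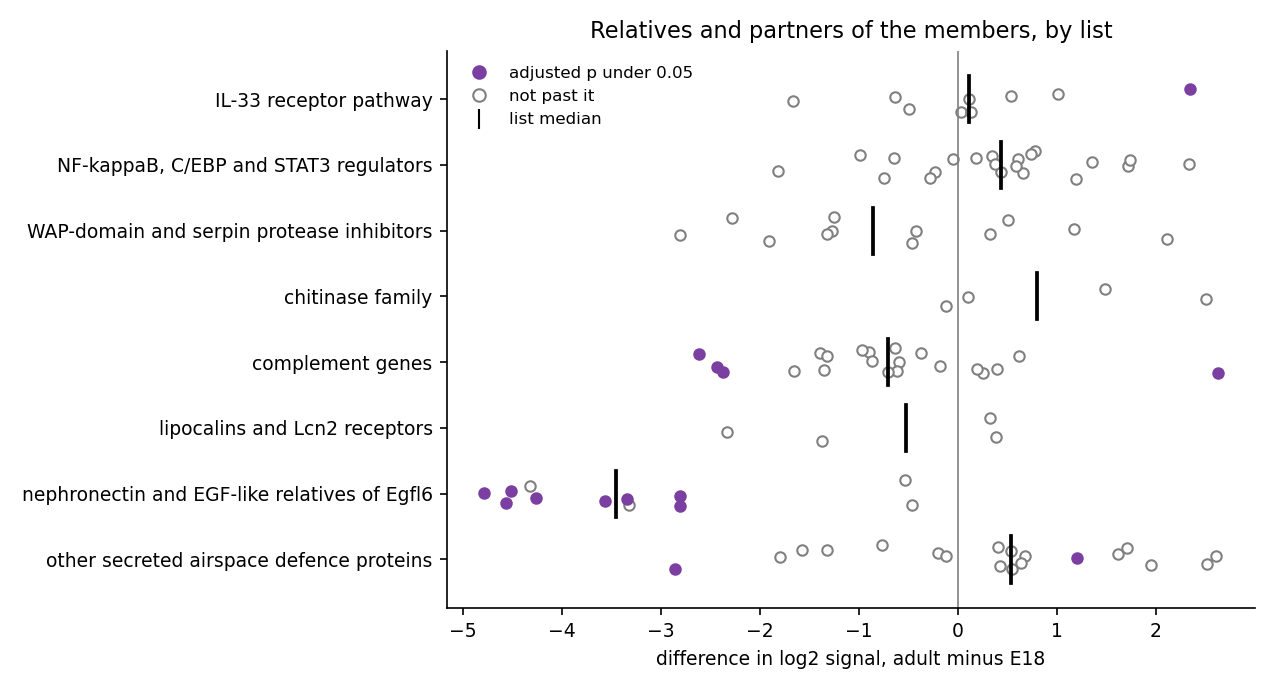
Difference in log2 signal, adult minus E18 (horizontal axis), of each tested gene in 8 lists of relatives and partners of the members, with filled points for an adjusted p under 0.05, open points for the rest and a vertical bar for each list's median; vertical scatter within a list has no meaning. The list named for nephronectin and EGF-like relatives of Egfl6, which also holds integrin subunits and other matrix proteins, has 8 of the 15 filled points, all at -2.81 or lower.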

How the data were processed

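The authors deposited 1 linear intensity (signal) for each probe set, made, per the submitters' processing notes, with MAS5 and Affymetrix Expression Console; probe summaries were scaled by the authors, with a trimmed mean (2% off each end) of 500.003 or 500.004 on every array. Here they were log2 transformed with no pseudocount. Of 45101 probe sets, 34945 had 1 gene symbol, 932 several, 9160 were not listed and 64 were controls; the brightest probe set by mean log2 signal stood for a gene. Genes at or above their array's 40th percentile, a rank and not a measured background, on at least 3 of 6 arrays were tested, 13335 of 18193. The test was limma's linear model (version 3.58.1, R 4.3.3; two-sided, intensity trend, Benjamini-Hochberg over all genes tested); SE is the moderated standard error. Nothing says how replicates were separated beyond the word biological, and p-values measure the spread between these arrays.

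The steps were tested on simulated data, with 50 genes changed at each size. Of changes of 1, 2, 4 and 6 log2 units, 2%, 36%, 82% and 98% were called. Of the 112 genes called, 3 had not been changed. Members, gene lists and tests were chosen with earlier results of these data known. Each member is named, and from each list up to 3 genes that passed, by size, or the brightest up to 2; close relatives of members, and the 2 genes most alike each member over the arrays, are also given. Alternatives covered scaling, pseudocount, floor, filter, probe sets, variance trend, blocks and left-out arrays.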

Additional observations from a re-analysis of the deposited data

How the results depend on the processing

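Having 3 arrays a group limits the precision. The sign of each of the 7 differences was the same in all 19 alternatives fitted (18 for Cfb, which could not be fitted where all 6 arrays had to reach the floor), apart from Lcn2 in replicates 1 and 2. Slpi, at a difference of 2.49, did not pass with no filter (adjusted p = 0.0524), the floor reached on all 6 arrays (0.0529), probe sets averaged (0.0505), the fit over all 28104 probe sets (0.0515), no intensity trend (0.0628) or the batch term (0.0653), nor with quantile normalization (2.36, 0.0597) or E18 replicates 1 and 2 averaged and counted once (2.21, 0.195). Egfl6, at -2.28, did not pass with no filter (0.0557), the floor on all 6 arrays (0.0571), the fit over all probe sets (0.0551), no intensity trend (0.0608) or the batch term (0.0516), nor with quantile normalization (-2.06), centred arrays (-2.12) or those E18 replicates averaged (-1.98). With 1 array left out Slpi ran from 2.18 to 3.07 and Egfl6 from -2.87 to -1.92. In replicates 1 and 2 alone Il33 (-1.49), Chil1 (-1.48) and Hc (-1.60) passed and Lcn2 turned to 0.53; in replicate 3 alone, an alternative chosen after seeing the data, Il33 (1.01), Chil1 (1.16) and Hc (0.96) were higher in the adult array. The cause of these changes was not tested.

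Over the whole table, 188 genes were higher and 610 lower, against 95 and 298 with the floor on all 6 arrays, 801 and 2195 in replicates 1 and 2, 22 and 41 with E18 replicates 1 and 2 averaged, and from 24 to 701 higher and from 42 to 2069 lower with 1 array left out. Each member has 1 probe set, so the alternative of its other probe sets was not run. Arrays of both groups share replicate numbers, but the deviations of same-numbered arrays correlated by 0.036, -0.14 and -0.058, so the numbers were not taken to pair them. With the replicate number as a block, 98 genes were higher and 394 lower, Slpi (2.49) had an adjusted p of 0.112 and Egfl6 (-2.28) one of 0.10.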
